A study of Olea europaea with 24 samples.

Results

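Of the 11 rows that the authors named sucsynthase in a count table of 50663 rows for olive (Olea europaea) branches, 8 are described here: sucsynthase2, sucsynthase3, sucsynthase4, sucsynthase5, sucsynthase6, sucsynthase7, sucsynthase8 and sucsynthase9. They are all the rows whose name begins with sucsynthase other than sucsynthase1, sucsynthase10 and sucsynthase11, and all 8 passed the filter on low counts. RNA was sequenced from branches of 6 trees on 4 days, 7 May, 23 May, 6 June and 29 July, that is 0, 16, 30 and 83 days after the first, which gave 24 libraries. Trees 3, 9 and 11 formed the watered arm and trees 4, 8 and 12 the dried arm, with 3 trees in each of 8 groups and every tree sampled on every day. Per the labels, irrigation was set at 1.2 L per day, and the dried trees were cut to 1 L per week for 2 weeks and then to no water for 2 weeks. Which sampling days fell in these weeks is not stated in the labels, and they give no cultivar, age or genotype. Heat, drought and recovery stand in the title of the series. The days carry the season, with any heat that it brought, in both arms. The arms differ in the irrigation they were given, on days that the labels do not state.

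Sucrose synthase splits sucrose, with UDP, into UDP-glucose and fructose, and the reaction can run in both directions. Plants carry it as a small gene family. In woody tissue the enzyme is known for feeding UDP-glucose to cell wall synthesis and carbon to starch and respiration, in sinks that import sucrose through the phloem. The other route of sucrose cleavage is invertase, which yields glucose and fructose. The row numbers are the authors' own: no source used here links them to numbered isoforms of another plant, to a locus or to a length. No role of a single row is therefore given, and log2 levels are compared between libraries and not between rows. Shares of reads are given without correction for row length, and spreads, changes and correlations of rows are set side by side. No row ID matched the gene table of the assembly O_europaea_v1, so marker genes of branch tissue could not be read from these data.

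The deposited values are expected counts, in which a read that matches more than 1 row is divided between them. Of the 8 rows, sucsynthase4 and sucsynthase5 shared reads with each other, as did sucsynthase6 and sucsynthase7. Row sucsynthase2 shared reads with sucsynthase1, and sucsynthase9 with sucsynthase11. In each of these pairs the fractions of both rows added up to whole numbers in all 24 libraries, within 0.015 of a count, and each row had exactly 1 such partner among 31290 rows with fractions. Rows sucsynthase3 and sucsynthase8 held whole counts in every library within the same tolerance. Fractions occurred in 24 libraries for sucsynthase2, in 23 for sucsynthase4, sucsynthase5 and sucsynthase9, and in 15 for sucsynthase6 and sucsynthase7. A value of a pair's member thus depends on how reads were divided, and the sum of a pair does not.

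The libraries held 6675360 to 14122826 counts. In each of them 14% to 91% fell on 29 rows that exceeded 1% of some library, which left 988324 to 8938831 counts for all other rows. The median of that remainder over the 6 libraries of a day was 5298418 on 7 May, 2663973 on 23 May, 2655310 on 6 June and 6165425 on 29 July. Watered tree 9 stood apart on 7 May, where its log2 values correlated across rows by 0.483 and 0.613 with its group and the other pair of trees by 0.878. It did so again on 23 May, by 0.484 and 0.641 against 0.801. On 29 July all pairs within a group correlated by 0.938 to 0.965. Changes were tested with edgeR's quasi-likelihood test over 29107 rows, a call needed an adjusted p (Benjamini-Hochberg) under 0.05, and levels are log2 CPM, counts scaled to a common library size, with a prior count of 2, on which 0 counts read -2.54. In bulk tissue, fewer cells of a type and less RNA per cell cannot be told apart.

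**Figure D1:**
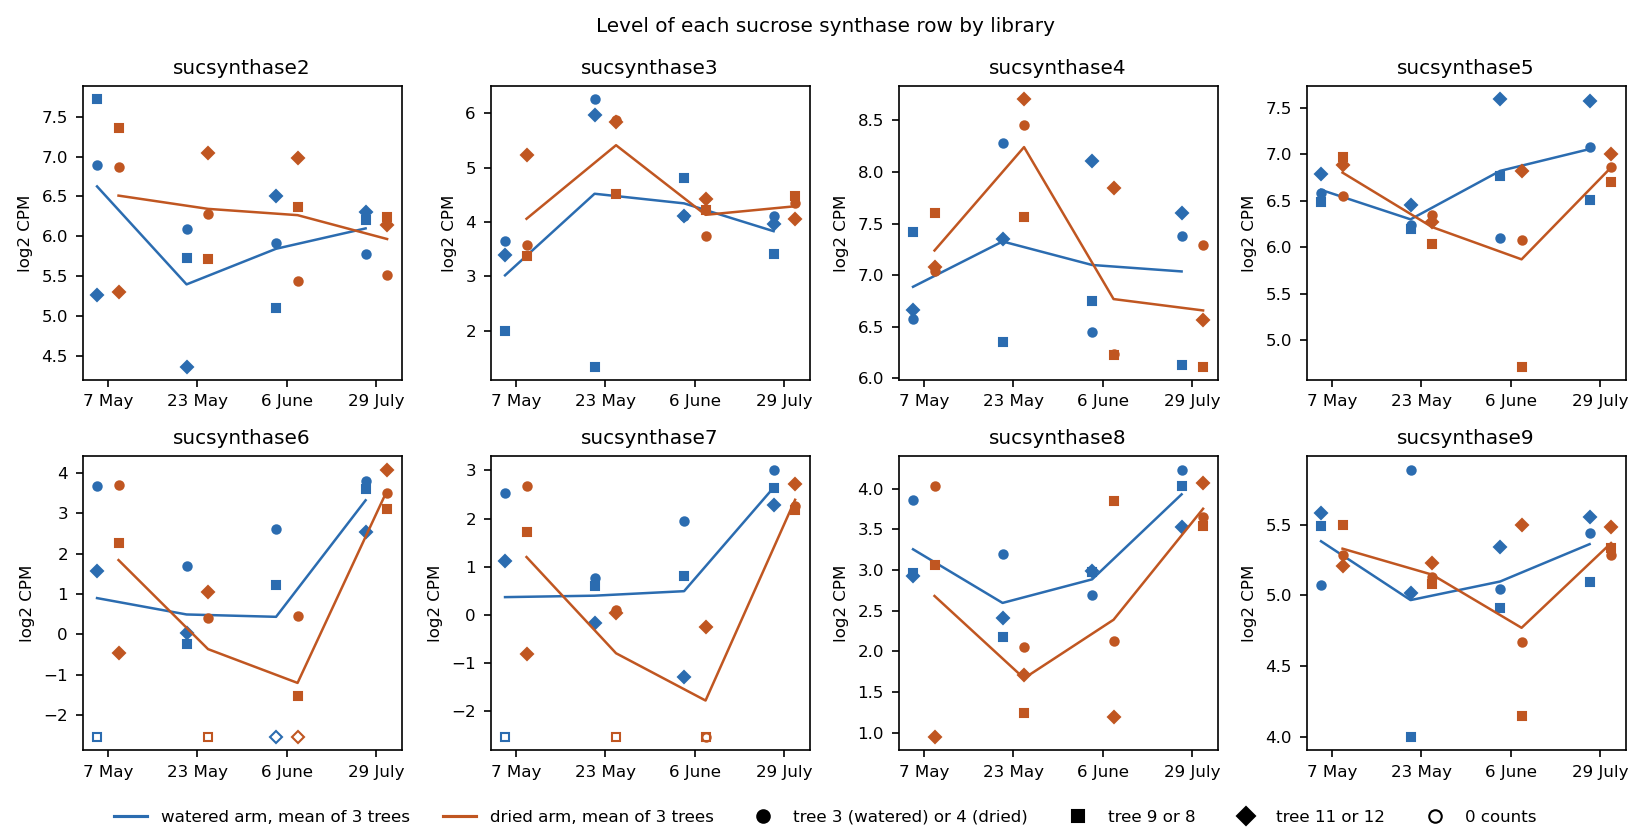
Level of each of the 8 rows (y axis, log2 CPM; a scale of its own in each panel) by sampling day (x axis), with 1 point per library, colours for the arms, shapes for the trees, open points for 0 counts and lines through the means of 3 trees. Rows sucsynthase6, sucsynthase7 and sucsynthase8 stood high in all 6 trees on 29 July, and sucsynthase3 reached 6.26 on 23 May.

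With both arms averaged, 4 of the 8 rows changed between late spring and high summer. Rows sucsynthase6, sucsynthase7 and sucsynthase8 rose from 23 May to 29 July, by 3.02 ± 0.90, 2.62 ± 0.78 and 1.69 ± 0.46 on the log2 scale (± SE, 6 trees on each day). Row sucsynthase3 fell by 1.49 ± 0.51 between the same days. The calls made up 50% of the 8 rows, against 18.6% of all tested rows called in that comparison (5426 of 29107). Rows sucsynthase6 and sucsynthase7 share reads, so their 2 calls are not independent. The median change of the 8 rows was 0.47, and that of all rows 0.12. This comparison and that of 29 July with 6 June were added after the data were seen, and for 23 May to 29 July the arms were not tested apart.

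Row sucsynthase6 ranged from 0 to 399.8 counts, the widest range of level among the 8 rows. In watered trees 3, 9 and 11 it had 271, 0 and 47.5 counts on 7 May, 49.7, 2 and 6 on 23 May, 161, 10.6 and 0 on 6 June, and 259.7, 231 and 74.2 on 29 July. In dried trees 4, 8 and 12 it had 205, 40.3 and 7.13 counts on 7 May, 9, 0 and 11.2 on 23 May, 2, 1 and 0 on 6 June, and 109, 204 and 399.8 on 29 July. On 29 July every library was high, on 7 May the trees of both arms were far apart, and on 6 June all 3 dried trees were at 2 counts or below. The libraries differ in depth, so these counts do not compare directly. In dried tree 4 the 2 counts of 6 June are 1.20 CPM, and the 9 of 23 May are 1.15 CPM. The 7.13 counts of dried tree 12 on 7 May are 0.57 CPM. The log2 CPM of sucsynthase6 on 29 July, 2.55 to 4.08 over the 6 trees, did not overlap that on 23 May, -2.54 to 1.69. It overlapped that on 6 June, -2.54 to 2.62, through watered tree 3.

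Row sucsynthase7, which shares reads with sucsynthase6, had 121, 0 and 33.5 counts in watered trees 3, 9 and 11 on 7 May, 25.3, 4 and 5 on 23 May, 99.8, 8.43 and 1 on 6 June, and 148, 116 and 60.8 on 29 July. In dried trees 4, 8 and 12 it had 99.4, 26.7 and 4.87 counts on 7 May, 7, 0 and 4.82 on 23 May, 0, 0 and 5 on 6 June, and 45.2, 106 and 153 on 29 July. The trees stood in much the same order as for sucsynthase6, and the log2 CPM of both rows had a Spearman correlation of 0.942 over the 24 libraries, which the shared reads enter. The level on 29 July, 2.19 to 3.01, lay above every library of 23 May (up to 0.76) and of 6 June (up to 1.96).

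Row sucsynthase8, for which no shared reads were found, had 311, 20 and 127 counts in the watered trees on 7 May, 147, 13 and 36 on 23 May, 169, 39 and 33 on 6 June, and 348, 309 and 148 on 29 July. In the dried trees it had 258, 70 and 22 counts on 7 May, 31, 4 and 18 on 23 May, 7, 80 and 16 on 6 June, and 120, 276 and 397 on 29 July. Its log2 CPM on 29 July, 3.53 to 4.23, did not overlap that on 23 May, 1.25 to 3.19, but overlapped that on 6 June, which reached 3.84 in dried tree 8. Over the 24 libraries its level had a Spearman correlation of 0.753 with sucsynthase6 and 0.729 with sucsynthase7, with which it shares libraries and depth.

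From 23 May to 29 July each of these 3 rows was higher in 6 of 6 trees. How many of all tested rows were so, or had days without overlap, was not counted. The adjusted p (edgeR) was 0.0269 for sucsynthase6, 0.0266 for sucsynthase7 and 0.0185 for sucsynthase8. With the shared reads of sucsynthase6 and sucsynthase7 summed, their pair rose by 2.91 ± 0.82 on the log2 scale, with an adjusted p of 0.0212 in edgeR. From 6 June to 29 July sucsynthase6 rose by 3.70 ± 1.01 and sucsynthase7 by 2.87 ± 0.81, each in 6 of 6 trees, with adjusted p of 0.0372 and 0.0393 in edgeR. These are averages of unlike arms. Mean log2 CPM of sucsynthase6 went from -1.20 to 3.57 in dried and from 0.44 to 3.33 in watered trees. The rise from 6 June to 29 July was larger in dried trees by 3.67 ± 2.00 for sucsynthase6 and 2.41 ± 1.58 for sucsynthase7 (adjusted p 0.459 and 0.55, edgeR). Row sucsynthase8 differed by 1.02 ± 0.45 there, was higher in 5 of 6 trees and did not pass (adjusted p 0.126, edgeR). That made 2 of 8 rows called (25%), against 8.62% of all tested rows, but the 2 share reads and are not independent calls. The day medians of reads outside the abundant rows moved with sucsynthase6, sucsynthase7 and sucsynthase8. Fitted without the abundant rows, the changes from 23 May to 29 July were 2.99, 2.60 and 1.66 for sucsynthase6, sucsynthase7 and sucsynthase8, all called. Such a fit leaves the depth outside the abundant rows as it was, so a part of depth in these changes was not tested.

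The calls of sucsynthase6 and sucsynthase7 between 23 May and 29 July were lost without tree 4, 8, 11 or 12, with adjusted p of 0.0821, 0.104, 0.0567 and 0.0683 for sucsynthase6 and 0.0793, 0.0931, 0.0702 and 0.0703 for sucsynthase7 (edgeR). Their fold changes stayed between 2.82 and 3.61 and between 2.47 and 2.94 in all 15 alternatives. That of sucsynthase8 was lost without tree 4, 8, 9 or 11, at 0.0552, 0.0677, 0.0536 and 0.0579, while its fold change stayed between 1.58 and 1.85 in all 15 alternatives. Between 6 June and 29 July, the calls of both other rows were lost without tree 4, 8, 11 or 12 (adjusted p 0.115, 0.13, 0.141 and 0.135 for sucsynthase6; 0.12, 0.13, 0.146 and 0.126 for sucsynthase7), and that of sucsynthase7 without tree 9 too (0.0507). Without tree 12 the change of sucsynthase7 was 5.19. Over all rows, edgeR called 262 between 23 May and 29 July without tree 4 and 279 without tree 8, and none between 6 June and 29 July without tree 4, 8, 11 or 12.

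Against the first day, none of the 3 rows passed. On 23 May, both arms averaged, sucsynthase6 stood at -2.03 ± 0.88 (adjusted p 0.142, edgeR), sucsynthase7 at -1.70 ± 0.77 (0.161) and sucsynthase8 at -1.06 ± 0.45 (0.139). On 29 July the 3 rows differed from 7 May by 0.99 ± 0.81, 0.92 ± 0.70 and 0.63 ± 0.44. In that comparison 0 of 8 rows and 0% of all rows were called in edgeR. An unadjusted p under 0.05 was reached by 0 of the 8 and by 3330 of all 29107 rows. None of the 8 was called in DESeq2, which called 1033 of 28912 rows in that comparison.

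**Figure D2:**
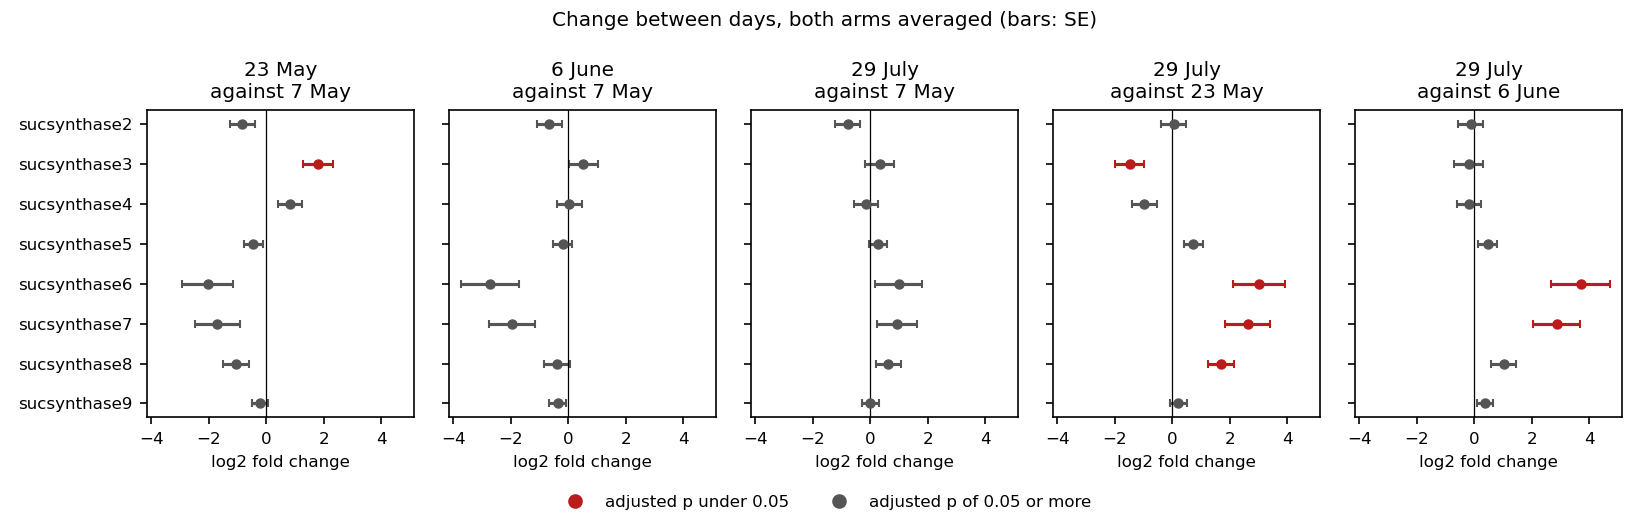
Log2 fold change (x axis, points; bars are ± SE) of each row (y axis) between days, both arms averaged, 6 trees on each day, with calls in red. Calls are sucsynthase3 on 23 May at 1.81, and the rises of sucsynthase6, sucsynthase7 and sucsynthase8 and the fall of sucsynthase3 to 29 July.

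Row sucsynthase3 moved the other way and peaked on 23 May. Its log2 CPM in watered trees 3, 9 and 11 was 3.65, 2.00 and 3.40 on 7 May, 6.26, 1.34 and 5.97 on 23 May, 4.10, 4.81 and 4.11 on 6 June, and 4.12, 3.40 and 3.97 on 29 July. In dried trees 4, 8 and 12 it was 3.58, 3.37 and 5.23 on 7 May, 5.88, 4.51 and 5.85 on 23 May, 3.74, 4.22 and 4.43 on 6 June, and 4.34, 4.47 and 4.05 on 29 July. On 23 May 4 trees stood near 6, dried tree 8 stood lower, and watered tree 9, at 7 counts, was the lowest of all 24 libraries. The trees were close together on 6 June and 29 July.

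With both arms averaged, sucsynthase3 rose from 7 May to 23 May by 1.81 ± 0.52 on the log2 scale (adjusted p 0.0377, edgeR) and was higher in 5 of 6 trees, all but watered tree 9. It was the only one of the 8 rows called there (12.5%, against 8.66% of all tested rows), a share near that of all rows. The median change of the 8 rows was -0.64, with 6 of 8 negative, and that of all rows -0.16, with 42.48% positive. Within an arm the change was 2.38 ± 0.75 in watered trees (adjusted p 0.146, edgeR) and 1.24 ± 0.72 in dried trees (0.348). Against 23 May, its level on 29 July was lower in 5 of 6 trees (adjusted p 0.0479, edgeR).

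The call of sucsynthase3 on 23 May was lost without any 1 of 5 trees, while the fold change without a tree was 1.57 to 2.14. Without tree 3, 4, 8, 11 or 12 the adjusted p in edgeR was 0.109, 0.183, 0.12, 0.124 and 0.0731, and without tree 9 it was 0.00586. With the tree as a block the change was 1.78 with an adjusted p of 0.0813. Without the dried 6 June library of tree 4 and the dried 23 May library of tree 8, which had the fewest reads outside the abundant rows, it was 0.0606. The fall to 29 July was called in 5 of 15 alternatives, and was 1.28 with the tree as a block (adjusted p 0.1, edgeR) and 0.85 on the authors' scaled values (0.282, limma).

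Rows sucsynthase4 and sucsynthase5 together took 15.7% to 59.3% of the reads of all 11 rows over the 24 libraries (median 41.9%), and the 8 rows 36.4% to 79.1% (median 64.8%). Neither was called in edgeR in any comparison. The log2 CPM of sucsynthase4 was 6.58 to 7.60 on 7 May (median 7.06 over 6 trees), 6.35 to 8.70 on 23 May (7.92), 6.23 to 8.10 on 6 June (6.60) and 6.11 to 7.60 on 29 July (6.93). Its highest values, 8.28, 8.46 and 8.70, came from watered tree 3 and dried trees 4 and 12 on 23 May. The days overlapped throughout. It differed by 0.83 ± 0.43 on 23 May against 7 May (adjusted p 0.228, edgeR) and by -0.97 ± 0.43 on 29 July against 23 May (0.114), lower in 5 of 6 trees.

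Row sucsynthase5 was one of the steadier rows apart from 6 June. Its log2 CPM was 6.48 to 6.97 on 7 May, 6.03 to 6.46 on 23 May, 4.71 to 7.59 on 6 June and 6.51 to 7.58 on 29 July. On 23 May all 6 trees lay below all 6 of 7 May, and those of 29 July lay above all of 23 May, each by a narrow margin. How many of all tested rows separate so was not counted. The sum with sucsynthase4 overlapped between these days, at 7.58 to 8.32 on 7 May, 7.27 to 8.95 on 23 May and 7.33 to 8.59 on 29 July. The fitted changes of sucsynthase5 were -0.46 ± 0.33 (adjusted p 0.402, edgeR) and 0.73 ± 0.33 (0.118), in 6 of 6 trees each, and neither passed in edgeR. DESeq2, in which 28.7% of all rows were called there, called the second, at 0.79 with an adjusted p of 0.0235, while the sum of sucsynthase4 and sucsynthase5 differed by -0.36 (0.539, edgeR).

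The division of reads within that pair, as counted, varied between days. Row sucsynthase4 took 56.0% ± 6.83 of the pair's counts on 7 May, 73.0% ± 12.1 on 23 May, 59.7% ± 9.24 on 6 June and 48.1% ± 7.19 on 29 July (SD, n = 6). On 23 May the share was 80.5%, 52.6% and 65.0% in watered trees 3, 9 and 11, and 81.2%, 74.4% and 84.4% in dried trees 4, 8 and 12. On 29 July it was 55.0%, 43.4% and 50.4% in the watered trees and 57.3%, 39.9% and 42.5% in the dried trees, lower in every tree. The mean difference was -24.9 points (exact sign-flip permutation test over 6 trees, two-sided p = 0.03125, the smallest it can give; 0.1875 adjusted over 12 such tests). From 7 May to 23 May the share was higher in 5 of 6 trees, by 17.02 points (exact p = 0.0625, adjusted 0.1875). None of the 12 share differences passed after adjustment; these tests were added after the data were seen, and the shares are those that the authors' counting assigned.

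**Figure D3:**
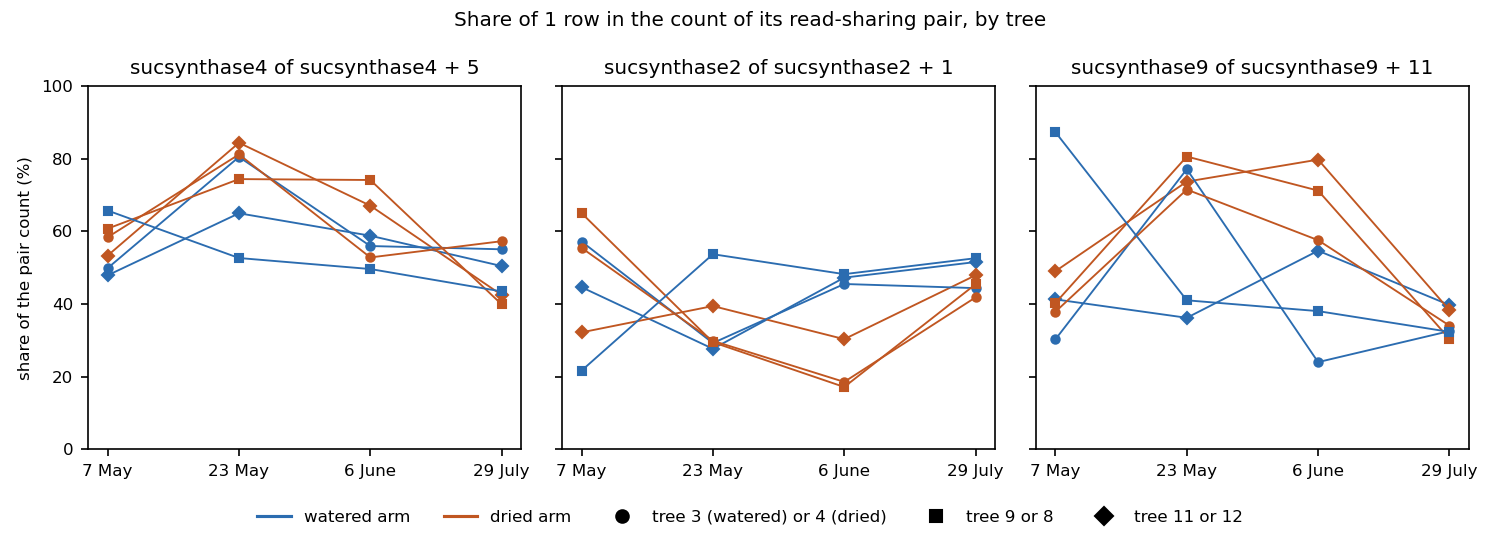
Share of 1 row in the counts of its read-sharing pair (y axis, %) by day (x axis), with 1 line per tree, coloured by arm. The share of sucsynthase4 on 29 July was below that of 23 May in all 6 trees, and on 6 June sucsynthase2 took 17.1% to 30.3% of its pair in dried trees and 45.5% to 48.2% in watered trees. A share depends on the counts of both rows of the pair.

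Row sucsynthase2 ranged from 4.37 (watered tree 11, 23 May) to 7.72 log2 CPM (watered tree 9, 7 May), and its days overlapped. It differed by -0.83 ± 0.44 on 23 May against 7 May (adjusted p 0.236, edgeR). On 6 June its level was 5.44, 6.37 and 6.98 in dried trees 4, 8 and 12 and 5.92, 5.11 and 6.51 in watered trees 3, 9 and 11, a difference of 0.45 ± 0.62 (0.724, edgeR). Its share of the pair with sucsynthase1 that day was 18.5%, 17.1% and 30.3% in dried trees 4, 8 and 12 and 45.5%, 48.2% and 47.2% in watered trees 3, 9 and 11. The arms did not overlap, and the means differed by -25.0 points (exact permutation test, 3 trees against 3, two-sided p = 0.1, the smallest it can give; 0.6 adjusted over 12). The arms were compared so for 3 pairs on 4 days, and in 10 of these 12 comparisons they overlapped. The pair's sum on that day differed by 1.52 ± 0.68 on the log2 scale, dried against watered (adjusted p 0.174, edgeR).

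Row sucsynthase9, as counted, was the steadiest of the 8, with a within-group SD of 0.44 on the log2 scale and a range of 1.89 over the 24 libraries, where the medians over all tested rows were 1.03 and 4.25. Its log2 CPM lay between 3.997 (watered tree 9, 23 May) and 5.89 (watered tree 3, 23 May). Of the comparisons of a later day with 7 May, both arms averaged, that of 6 June was the largest, at -0.37 ± 0.29 (adjusted p 0.549, edgeR). Its share of the pair with sucsynthase11 averaged 47.7%, 63.3%, 54.2% and 34.5% on the 4 days. On 6 June it was 57.6%, 71.2% and 79.7% in dried trees 4, 8 and 12 and 23.98%, 38.0% and 54.6% in watered trees 3, 9 and 11, the other comparison of the 12 without overlap (30.6 points, exact permutation p = 0.1, 0.6 adjusted). The sum of sucsynthase9 and sucsynthase11 was less steady: it rose from 23 May to 29 July by 1.08 ± 0.30, in 6 of 6 trees (adjusted p 0.0203, edgeR), and on 6 June it differed by -1.21 ± 0.43 between dried and watered trees (0.0995). Its partner sucsynthase11 rose from 23 May to 29 July by 2.00 ± 0.46 (adjusted p 0.0113, edgeR).

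Between the dried and the watered arm none of the 8 rows was called on any day. On 7 May, 23 May and 29 July, 0 of 8 rows and 0% of all rows were called, and none of the 8 had an unadjusted p under 0.05, against 990, 3246 and 41 of all rows. DESeq2 and limma on the authors' scaled values called none of the 8 on these days. Over all rows, DESeq2 called 68, 322 and 16 of 28912 on them, and limma 0 on each. On 6 June, 0 of 8 were called in edgeR, against 0.103% of all rows (30 of 29107), with 2 of 8 and 7059 of all rows at an unadjusted p under 0.05. That day DESeq2 and limma on the scaled values also called 0 of the 8, against 4005 of 28912 and 1032 of 28610 rows. The median difference of the 8 rows was -0.27 and that of all rows -0.25. On 23 May the 8 rows had a median of -0.05 and all rows -0.36.

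The 2 rows with a low unadjusted p on 6 June were sucsynthase6 and sucsynthase7. Over the 3 dried trees sucsynthase6 had 3 rounded counts, against 172 in the watered trees that day, a pooled rate 23.5-fold lower (exact 95% binomial interval 7.92 to 115, counting error only). Watered tree 3 held most of the 172: without it the rate was 5.85-fold lower (1.55 to 32.7), and without dried tree 4 or 12 it was 62.7-fold and 11.6-fold lower. In addition, watered tree 11 stood at 0 counts, so the arms overlapped. The fitted differences were -3.46 ± 1.63 for sucsynthase6 and -2.68 ± 1.25 for sucsynthase7, with adjusted p of 0.197 and 0.191 (edgeR). Row sucsynthase5 differed by -0.85 ± 0.46 (0.272), and the other 5 rows by -0.30 to 0.45. A count of 0, taken as up to 3 counts, allows 0.704 CPM of sucsynthase6 in watered tree 11 and 0.397 CPM in dried tree 12 on 6 June, which covers counting error only.

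Within the dried arm, 0 of 8 rows were called on 23 May against 7 May (0.144% of all rows), on 6 June (1.09%) and on 29 July (0%). On 6 June all 8 fitted changes were negative, with a median of -0.40 against -0.20 over all rows. Row sucsynthase6 stood at -4.53 ± 1.63 (adjusted p 0.101, edgeR) and sucsynthase7 at -3.42 ± 1.25 (0.105). DESeq2 called both, at 0.0318 and 0.0312, along with 15.1% of all rows. Without tree 9's library of 7 May edgeR called both too, at 0.046 and 0.0491, along with 11.4% of all rows. The pooled rate of sucsynthase6 was 33.8-fold lower than on 7 May (11.4 to 165), from 3 and 252 counts, and tree 4 held 205 of the 252. The intervals given here cover counting error only, not the spread between trees. Without 1 of the 3 trees the rate of sucsynthase6 was 24.4-fold to 34.4-fold lower. Row sucsynthase7 had 5 and 131 counts, of which tree 4 held most on 7 May and tree 12 all on 6 June. Its pooled rate was 10.5-fold lower (4.4 to 33.0), but 4.01-fold without tree 4 (1.55 to 13.2) and 6.76-fold without tree 8, and in tree 12 it was not lower. The fitted change was -2.30 without tree 4 and -8.76 without tree 12.

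Within the watered arm, 0 of 8 rows were called on 23 May against 7 May (0.0206% of all rows), on 6 June (0%) and on 29 July (0%). An unadjusted p under 0.05 was reached by 2, 0 and 0 of the 8, and by 4777, 2623 and 2390 of all 29107 rows. DESeq2 called sucsynthase3 alone, on 23 May, where it called 6.31% of all rows. With both arms averaged, 0 of 8 and 0% of all rows were called on 6 June against 7 May. An unadjusted p under 0.05 was reached by 4969 of all 29107 rows and by 2 of the 8, sucsynthase6 at -2.71 ± 1.00 and sucsynthase7 at -1.94 ± 0.80. None of the 8 was called there in DESeq2, which called 1542 of 28912 rows.

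The interaction, in which the watered arm's change is taken from the dried arm's, was called in 0 of 8 rows from 7 May to 23 May (0% of all rows), from 7 May to 6 June (1.07%) and from 6 June to 29 July (0%). In these interactions the 8 rows all had an unadjusted p of at least 0.05. Of all 29107 rows, 2752, 6140 and 3543 were under it. DESeq2 called none of the 8, against 218, 2829 and 250 of 28912 rows. From 7 May to 6 June the estimates were -3.64 ± 2.00 for sucsynthase6 and -2.95 ± 1.59 for sucsynthase7 (adjusted p 0.304 and 0.292, edgeR). From 6 June to 29 July they were 3.67 ± 2.00 and 2.41 ± 1.58 (0.459 and 0.55). A test of any difference among the 8 groups called 0 of 8 rows in edgeR (6.38% of all rows). An unadjusted p under 0.05 was reached by 3 of the 8 and by 7747 of all 29107 rows. DESeq2 called 3 of the 8 and 28.1% of all rows.

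The other enzymes of sucrose cleavage and of the use of its products, invertases, hexokinases and UDP-glucose pyrophosphorylases (rows named invertase, hexokinase and ugp), gave 22 rows, of which 15 were tested. From 23 May to 29 July 0 of 15 rose and 2 fell: invertase11, by 3.33 ± 0.88 (adjusted p 0.0173, edgeR), and invertase2, by 4.53 ± 1.39 (0.0303), where 18.6% of all rows were called. From 6 June to 29 July invertase2 fell by 5.13 ± 1.45 (0.0391), and hexokinase9 rose by 4.28 ± 1.10 (0.0343), where 8.62% of all rows were called. On 23 May against 7 May invertase1 was the single call, at -6.10 ± 1.87 (0.0465), where 8.66% of all rows were called. In the dried arm hexokinase9 was lower on 6 June than on 7 May (adjusted p 0.047, edgeR; 1.09% of all rows called), with 0 counts in all 3 dried libraries of that day, and its interaction from 7 May to 6 June was negative (0.0483; 1.07% of all rows called). In the test of any difference among the groups, 3 of the 15 were called, invertase1, invertase2 and invertase8, against 6.38% of all rows. The authors chose these names, and may have chosen them on these libraries.

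For each row with a mean of at least 1 log2 CPM, the rows most alike over the 24 libraries were taken by Spearman correlation of log2 CPM, as a description, since all rows share the libraries and their depth. For sucsynthase6 they were sucsynthase7 (0.942) and hexokinase5 (0.922) among the named rows, and Oeu008720.1 (0.963) among all. For sucsynthase8 they were sucsynthase6 (0.753), pgm4 (0.748) and Oeu026662.1 (0.879). For sucsynthase5 they were starchp2 (0.77), sbe1 (0.719) and Oeu024479.1 (0.885), and for sucsynthase3 they were pgm1 (0.643), starchsyn2 (0.637) and Oeu025160.2 (0.817). For sucsynthase4 they were gpt1 (0.638), bamylase7 (0.58) and Oeu017004.2 (0.834). For sucsynthase2 they were sucsynthase1 (0.642), gpt3 (0.448) and Oeu018006.1 (0.821), and for sucsynthase9 they were sucsynthase5 (0.605), sucsynthase4 (0.497) and Oeu036965.1 (0.845). The correlations of sucsynthase3 with sucsynthase6, sucsynthase7 and sucsynthase8 were -0.208, -0.251 and -0.327.

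In the authors' deposited table of 21 comparisons between pairs of groups, 4 held a row of the 8 under an adjusted p of 0.05. Over all genes, these held 6335 (after_3_drought_1), 8323 (after_3_drought_2), 4525 (ctrl_0_drought_2) and 4978 (ctrl_3_drought_2) under 0.05. In some of the other comparisons no value is given for sucsynthase6, sucsynthase7 or sucsynthase8. Under the name after_3_drought_1 the authors' deposited table gives log2 fold changes of 3.72 for sucsynthase6 (adjusted p 0.0194), 3.29 for sucsynthase7 (0.0267), 2.28 for sucsynthase8 (0.0105) and -1.46 for sucsynthase4 (0.0434). Under after_3_drought_2 the authors' deposited table gives 5.62 for sucsynthase6 (0.00101) and 4.43 for sucsynthase7 (0.00557). Under ctrl_0_drought_2 the authors' deposited table gives 4.18 (0.0256) and 3.75 (0.0312) for these rows, and under ctrl_3_drought_2 it gives 5.83 (0.0148) and 5.32 (0.0147). The names are printed as deposited. Read as written, ctrl_3 against drought_2 differs in both arm and day. No name holds drought_0, so the names do not tell whether ctrl_0 covers the watered arm alone. Comparisons that share a group share its libraries.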

How the data were processed

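The submitters' processing notes name RSEM with Bowtie2, cutadapt, limma and DESeq2; for versions and the genome build, the sources used here give nothing. The deposited count table holds expected counts, which were rounded before testing. The authors' scaled table holds signal values equal to the rounded counts times 1 constant per library, checked in all 24 libraries on rows of at least 20 counts. The authors' table of comparisons holds log2 fold changes and adjusted p-values as deposited.

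Rounded counts were tested in R 4.3.3 with edgeR 4.0.16 (quasi-likelihood test on all 24 libraries with a mean for each group, rows kept by filterByExpr, TMM scaling), with p-values adjusted by Benjamini-Hochberg over the 29107 rows left and a threshold of 0.05. SE was taken as |log2 fold change| divided by the root of the F statistic. Of 19 comparisons, 17 were set at the start and 2 were added after seeing the data. The members and lists were chosen with earlier results of these data known. Named were all 8 rows and, for each with a mean of at least 1 log2 CPM, the 2 named rows and 1 row of all most alike by Spearman correlation; other names were chosen after their values were seen.

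Alternatives were DESeq2 1.42.0, edgeR with DESeq2's size factors, a filter of only 1 count, limma 3.58.1 on log2(scaled value + 1), the tree as a block, fits to 1 day's 6 libraries, and fits without single trees or doubted libraries. Added later were summed read-sharing pairs and fits without the 29 abundant rows. The edgeR steps were tested on simulated counts only for both arms averaged on 6 June against 7 May, and no result above rests on that test. The same trees were sampled on each day, so the tree pairs libraries between days; deviations of libraries of 1 tree correlated by -0.03 to 0.18 on average.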

Additional observations from a re-analysis of the deposited data

How the results depend on the processing

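Over the alternatives, 280 of the values computed for single rows kept their direction and their side of the threshold, 42 kept the direction and lost the call, 5 gained a call and 1 reversed: sucsynthase5 on 29 July against 23 May, at -0.36 with the reads of its pair summed, since that value is the change of sucsynthase4 and sucsynthase5 together. For 23 May against 7 May, both arms averaged, the count of called rows went from 1 to 0 with limma on the authors' scaled values, with the tree as a replicate block and without the 2 dried libraries of fewest reads outside the abundant rows (tree 4 on 6 June, tree 8 on 23 May), and was 0 to 1 with single trees left out. For 29 July against 23 May the 4 became 1 without those 2 libraries and 0 to 3 with single trees left out. For 29 July against 6 June the 2 became 1 and 0 to 2. DESeq2 called 1 row in the watered trees on 23 May against 7 May, 2 in the dried trees on 6 June against 7 May and 3 among the 8 groups, where edgeR called 0. Leaving out tree 9's library of 7 May gave 2 called rows in the dried trees on 6 June and 2 among the 8 groups in edgeR; with single trees left out the last was 0 to 1. With the tree as a replicate block, 29 July against 23 May gave 3 called rows, sucsynthase3 no longer among them. The call of sucsynthase3 on 23 May against 7 May was lost too, as given above, and no other call changed. Over all rows, the calls of 23 May against 7 May, both arms averaged, went from 2522 to 21 without tree 4 and to 5173 in DESeq2, and those of 29 July against 23 May from 5426 to 262 and 8291. The cause of these changes was not tested. On the authors' scaled values the median of all rows shifted by over 0.1 on the log2 scale in 11 comparisons, at most by 0.29 (29 July against 23 May, from 0.12 to 0.41), and without the abundant rows in 5. Row sucsynthase6 or sucsynthase7 was at 0 counts in 4 libraries each, which limits what their low days show.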
